A study of Sus scrofa with 12 samples.

Results

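Extracellular vesicles (EVs) are membrane-bound particles that cells shed from the plasma membrane or release from multivesicular endosomes. They carry messenger RNA (mRNA) from the cytoplasm of the parent cell, and part of this mRNA is fragmented. EVs of mesenchymal stromal/stem cells (MSCs), which are cultured fibroblast-like cells of the adipose stroma, are studied as cell-free carriers of what these cells would otherwise deliver to injured tissue.

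The mRNA cargo of MSC-derived EVs was described from 3 EV libraries, which were chosen by their labels and are 3 of the 12 libraries of the series. The pigs were 3 female domestic animals aged 3 months, and their abdominal fat gave MSCs that were cultured in medium with platelet lysate and used at passage 3. EVs were collected from the culture supernatant by ultracentrifugation, and each EV library has an MSC library of the same pig beside it. No treatment, transgene or mutation separated the groups, and each pig gave 1 EV and 1 MSC mRNA library, so the difference between 2 EV libraries is a difference between pigs and preparations together. EV replicates 1, 2 and 3 come from pigs 1, 2 and 3, and MSC replicates carry the same numbers.

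The EV libraries held 10429085, 12151384 and 11608180 reads on genes, and the MSC libraries 11332330 to 12276855. These were 25.4% to 28.2% of the library totals implied by the deposited RPKM (reads scaled by gene length and library total). The table lists gene models of the pig genome build susScr3, called entries here, and 29658 of them were used. Of the entries, 9178 share at least 90% of their span with another entry, and 62.8% of those had 0 reads in all 6 mRNA libraries, against 28.4% of the 17472 entries that overlap nothing. A symbol at 0 reads can therefore be a gene whose reads were not assigned. COL1A2, COL3A1, TAGLN and TPM1, whose products are abundant in cultured stromal cells, were at 0 reads in every library in all of their entries. The 13 mitochondrially encoded genes on the list were also at 0, as were 1170 entries placed on X, Y or MT under their bare names. MSC replicate 2 stood apart from the other libraries, with a median absolute log2 difference of 0.62 to 0.89 to each of them, whereas the 3 EV libraries differed from each other by 0.32 to 0.43. The EV libraries carried markers of the parent cell. PDGFRB, a growth factor receptor of stromal cells, had 7833, 9874 and 10114 reads in EV replicates 1, 2 and 3, and CD44, the hyaluronan receptor, had 6297, 5850 and 3603. NT5E, which encodes CD73, had 900, 1816 and 1268. ENG, which encodes CD105, was low in both groups, with 60, 114 and 69 reads in EVs and 46, 75 and 44 in MSCs. CD63, a tetraspanin that marks endosome-derived vesicles, had 11656, 11838 and 8359 reads. THY1 had 0 reads, ITGB1 had 2, 2 and 3 and CD9 had 7, 6 and 4, but these values were about as low in the MSC libraries, and the entries of these 3 symbols share their span with another entry.

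A few entries held much of the gene reads. The leading entries by reads included FN1, which encodes the matrix glycoprotein fibronectin, and RN18S, the ribosomal RNA of the small subunit. FN1 took 3.90%, 8.37% and 6.40% of the gene reads of EV replicates 1, 2 and 3, and 3.18%, 4.42% and 3.04% of those of MSC replicates 1, 2 and 3. The mean was 6.22% ± 2.24 over the EV libraries, compared with 3.55% ± 0.757 over the MSC libraries (SD, n = 3 each), and the ranges overlapped (log2 fold change 0.78 ± 0.57 SE, adjusted p = 0.488 in edgeR). RN18S took 4.02%, 2.85% and 2.54% in EVs, and 1.88% ± 1.35 in MSCs (SD, n = 3), where replicate 1 was highest at 3.41%. The Wilson 95% intervals of these shares are at most 0.0156 percentage points to each side, so counting error is small beside the difference between libraries.

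Collagen VI, a beaded-filament collagen of the pericellular matrix, gave 3 of the 15 leading entries. COL6A3 took 1.08%, 2.13% and 1.70% of EV reads and 0.692%, 0.329% and 0.621% of MSC reads, so every EV library lay above every MSC library. The fold change of 1.63 ± 0.47 (log2, SE) did not pass the adjustment (adjusted p = 0.237, edgeR). COL6A2 took 0.970%, 1.69% and 1.72% in EVs and COL6A1 0.539%, 0.741% and 0.786%, and for both the groups overlapped. Summed, the 3 collagen VI entries took 3.79% ± 1.05 of EV reads and 2.17% ± 0.337 of MSC reads (SD, n = 3 each). The exact permutation p, two-sided, was 0.1, which is the lowest possible with groups of 3. VIM, the intermediate filament vimentin of mesenchymal cells, took 1.02%, 1.22% and 1.61% of EV reads. IGFBP5, an insulin-like growth factor binding protein, was lower in EV replicate 3, with 1.22%, 1.09% and 0.419%. COL4A2, a basement membrane collagen, took 0.709%, 0.566% and 0.365%, and its unnamed neighbour ENSSSCG00000009544 on chromosome 11 (84373663 to 84432619) took 0.861%, 0.956% and 0.448%.

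The largest differences among the leading entries came from unnamed models. On chromosome 12, between SGCA and LRRC59, 4 entries lie from 26412517 to 26477726, namely ENSSSCG00000027593, ENSSSCG00000021015, ENSSSCG00000017581 and ENSSSCG00000029074. Together they took 2.33%, 0.958% and 8.37% of the reads of EV replicates 1, 2 and 3, a ratio of highest to lowest of 8.74, and 3.78%, 1.73% and 5.48% of the MSC reads. In both groups pig 3 was highest and pig 2 lowest. The files give these models no name. In a later pig annotation (Sscrofa11.1), the genes between the same named neighbours include COL1A1, TMEM92, XYLT2, MRPL27 and EME1, and the deposited table does not say which of them, if any, these models represent. A pair of entries on the unplaced scaffold GL896296-2 moved the same way, with 0.747%, 0.362% and 2.46% of EV reads. SPARC, a secreted matrix-binding glycoprotein listed in 2 entries on different sequences, was also highest in EV replicate 3 and lowest in EV replicate 2, with 0.751%, 0.423% and 1.73% of EV reads over both. The plot of the leading entries shows that the 3 EV libraries keep the order of the 3 pigs' MSC libraries in these unnamed models, with EV replicate 3 at the right and EV replicate 2 at the left.

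**Figure D1:**
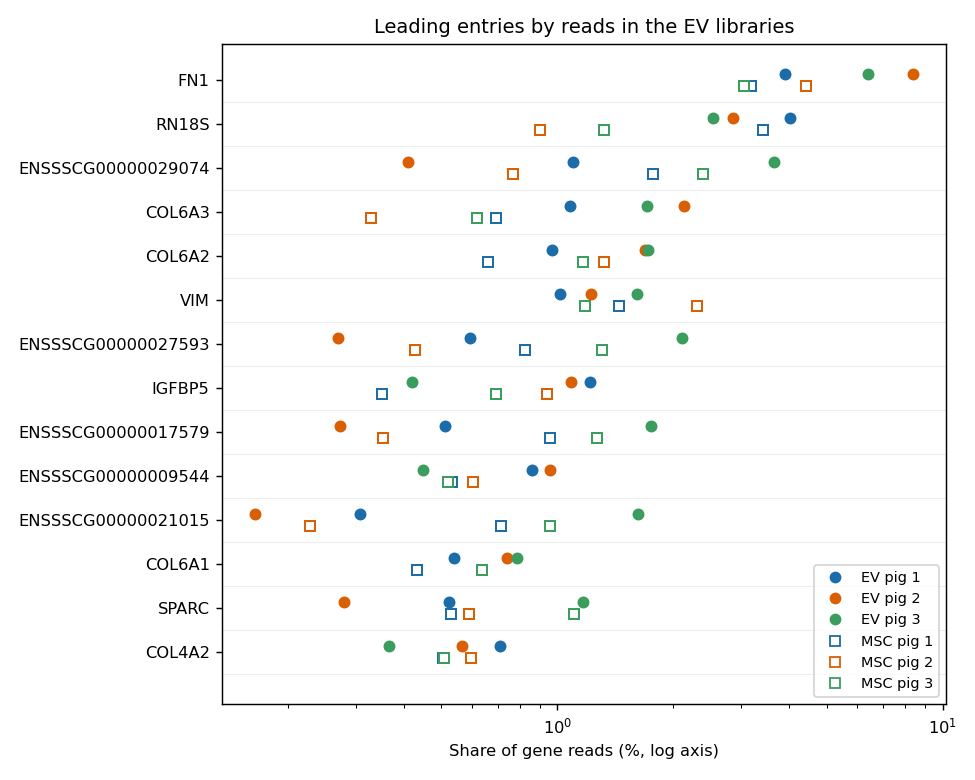
Share of gene reads (percent, log axis) of entries that rank among the 15 with the largest mean share in the EV libraries. Filled circles are the EV libraries and open squares the MSC libraries, coloured by pig. FN1 runs from 3.90% to 8.37% in EVs, and the unnamed chromosome 12 and scaffold entries are highest in pig 3 and lowest in pig 2 in both groups.

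Read shares favour long transcripts, so levels were also ranked by the deposited RPKM, which divides by length. The unnamed chromosome 12 models were again among the leading entries, with ENSSSCG00000029074 at 3678, 1484 and 13336 RPKM. RN18S had 3639 ± 714 RPKM, FN1 2078 ± 811, VIM 1865 ± 514, COL6A1 1277 ± 299 and COL6A2 1275 ± 418 (SD, n = 3 each). A pair of entries of 57 and 69 bp on chromosome 6, ENSSSCG00000021356 and ENSSSCG00000025162, also stood among the first 15, and both lie between RN5-8S and ACSF3 beside RN18S. Of the 15 leading entries by RPKM, the chromosome 12 and scaffold models had the widest spread, with SDs close to their means.

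The share of reads on the leading entries differed between the EV libraries, and EV replicate 3 had the highest share of the 6 libraries on its 10 and on its 100 leading entries. The 10 leading entries of each library held 18.9%, 25.5% and 27.6% of the reads of EV replicates 1, 2 and 3, and 17.8%, 21.4% and 17.3% of those of MSC replicates 1, 2 and 3. The SD was 4.52 percentage points among EVs and 2.24 among MSCs. Each EV library was above the MSC library of its pig, and the groups overlapped (two-sided exact permutation test p = 0.2). By shares of RPKM the direction turned in pig 1, where the 10 leading entries held 20.6% in EVs and 24.7% in MSCs. The 100 leading entries held 36.2%, 40.5% and 47.7% of EV reads. The number of entries that together held 50% of the reads was 376, 283 and 133 in EVs, against 371, 193 and 313 in MSCs (exact permutation p = 0.8). By this count EV replicate 3 was the most concentrated library of the 6, with EV replicate 1 and MSC replicate 1 at the other end. Over the 15 measures of composition compared, no exact permutation p was below 0.1, and adjusted for the 15 the lowest was 0.75. The 2 measures at 0.1 concerned length. The median gene model length, weighted by reads, was 2641, 3019 and 2540 bp in EVs and 2478, 2302 and 2410 bp in MSCs, and models over 3000 bp held 45.4%, 50.2% and 44.6% of EV reads against 42.7%, 37.9% and 41.3% of MSC reads. In both measures the groups did not overlap.

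**Figure D2:**
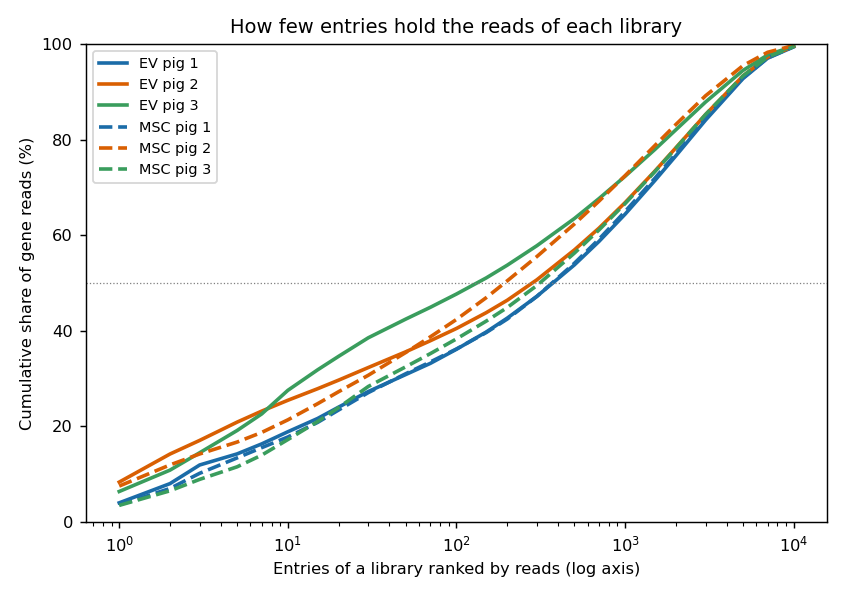
Cumulative share of gene reads (percent) over the entries of each library ranked by reads (log axis). Solid lines are EV libraries and dashed lines MSC libraries, coloured by pig. The dotted line marks 50%, which EV replicate 3 reaches after 133 entries and EV replicate 1 after 376.

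The cargo was broad behind its leading entries. At least 1 read in any EV library was found for 17670 entries, and 11303 had at least 10 reads in all 3. Of these 11303, 10599 also had at least 10 reads in all 3 MSC libraries, and 0 had 0 reads in every MSC library. The leading 100 entries of the 3 EV libraries had 68 in common, and 49 of these were also among the leading 100 of all 3 MSC libraries. Unnamed entries took 21.8%, 18.5% and 26.9% of EV reads. An absence of reads allows at most 3 reads, which is 0.234 to 0.303 CPM (counts scaled to a common library total with TMM factors) in the EV libraries.

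Gene classes were described by their share of the reads. By assigned reads, matrix structural genes were the largest class, with 11.2%, 16.3% and 17.1% of the reads of EV replicates 1, 2 and 3 (14.8% ± 3.21, SD, n = 3), and 10.9% ± 0.862 of MSC reads. The share was higher in the EVs of all 3 pigs, but EV replicate 1 lay within the MSC range (exact permutation p = 0.3). It rests largely on FN1 and collagen VI. Next came intermediate filaments and tubulins with 1.31% ± 0.299, actin cytoskeleton genes with 1.28% ± 0.154, translation factors with 1.17% ± 0.0414 and glycolysis genes with 1.15% ± 0.181 (SD, n = 3 each). This order depends on which entries received reads. Of 79 ribosomal protein entries, 40 shared their span with another entry and had 0 reads in every library, against 15 of 71 matrix entries. The 13 mitochondrially encoded genes were all at 0. Proteases and inhibitors of the matrix took 0.710% ± 0.00326, a share that varied little although single members varied widely. Marker genes of other cell types were rare. Endothelial markers took 0.00353% to 0.00524% of EV reads, adipocyte markers 0.00407% to 0.00629%, erythroid and platelet markers 0.00169% to 0.00208% and epithelial markers 0.000182% to 0.000586%. The endothelial KDR and VWF, the erythroid HBB and the adipocyte ADIPOQ and PLIN1 had at most 1 read in any EV library. Other markers were present at a low level. The endothelial EGFL7 had 233, 254 and 108 reads and ERG 114, 72 and 227 in EV replicates 1, 2 and 3. An entry of the adipocyte gene LPL had 293, 245 and 127 reads in EVs and 231, 12 and 131 in MSCs. Some marker entries shared a span with another entry and had 0 reads in all 6 mRNA libraries. These were 2 of 14 endothelial, 9 of 20 adipocyte, 10 of 18 erythroid and platelet and 6 of 17 epithelial entries. For them, absence was not shown. PTPRC, the pan-leukocyte CD45, had 6, 2 and 5 reads.

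**Figure D3:**
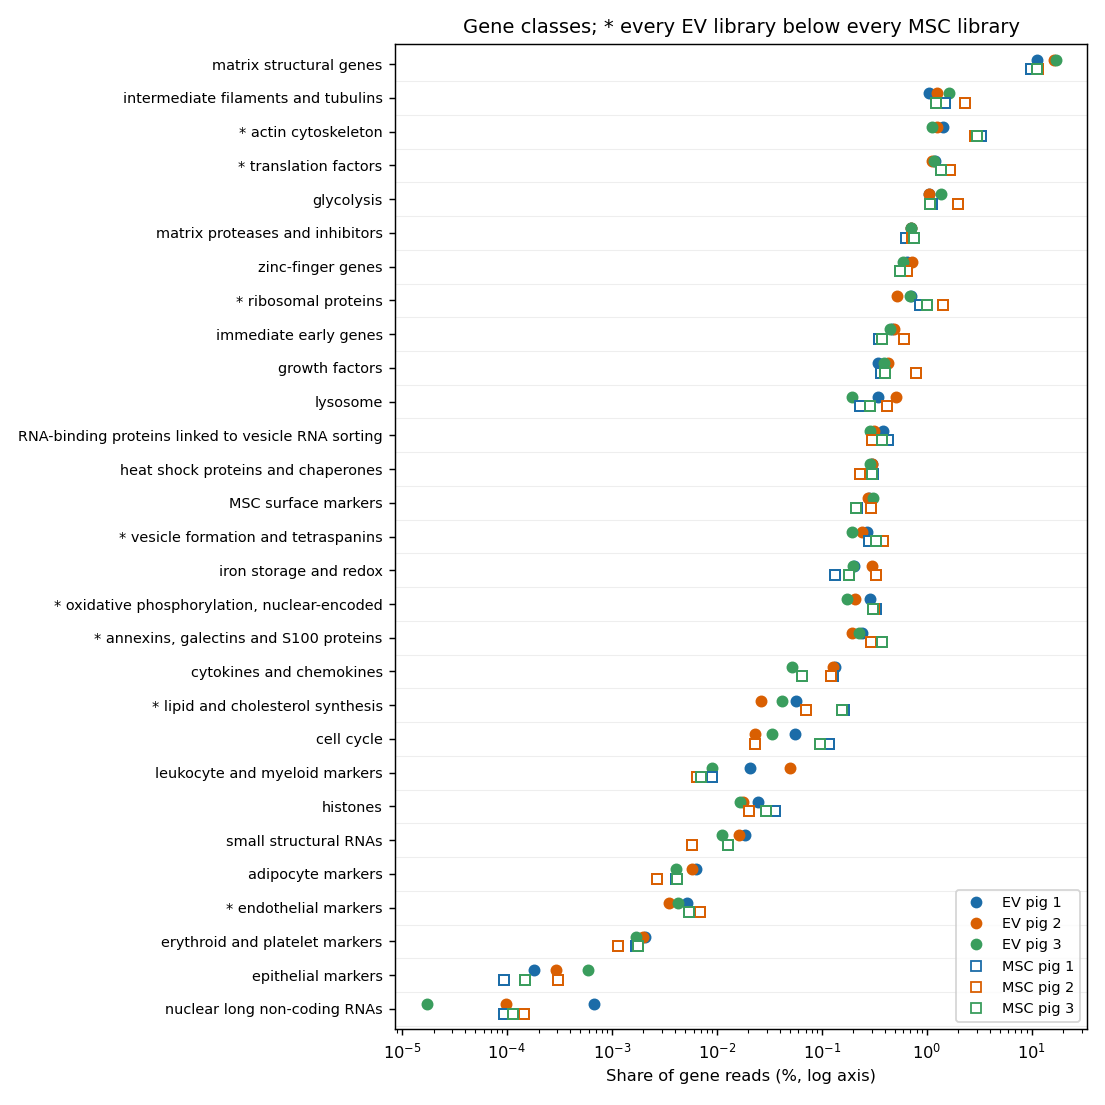
Share of gene reads (percent, log axis) on 29 gene classes in each library. Filled circles are EV libraries and open squares MSC libraries, coloured by pig, and an asterisk marks the 8 classes in which every EV library lies below every MSC library. Leukocyte and myeloid markers reach 0.0503% in EV replicate 2.

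Of the 29 classes with reads, 8 lay lower in every EV library than in every MSC library and 0 lay higher. Each had an exact permutation p of 0.1, the smallest possible with 3 against 3, and an adjusted p of 0.362 over the 29 classes. Over all 12392 entries tested, 11.2% lay above and 11.2% below in this sense, and the classes were chosen with earlier results of these data known. Actin cytoskeleton genes took 1.44%, 1.27% and 1.13% of EV reads and 3.31%, 2.91% and 2.99% of MSC reads. Ribosomal proteins took 0.638% ± 0.103 and 1.09% ± 0.287, and genes of lipid and cholesterol synthesis 0.0415% ± 0.0151 and 0.129% ± 0.0512 (SD, n = 3 each). The others were translation factors, nuclear-encoded subunits of oxidative phosphorylation, annexins with galectins and S100 proteins, vesicle formation genes with tetraspanins, and endothelial markers. Counted by RPKM, which divides the reads of each gene by its length, 4 of the 8 stayed below, namely ribosomal proteins, actin cytoskeleton, annexins with galectins and S100 proteins, and lipid and cholesterol synthesis. In bulk libraries, a lower share of a class cannot be told apart from a higher share of the rest.

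Among single entries, 0 of 12392 passed a fold change of 2 and an adjusted p under 0.05 in edgeR in either direction (lowest adjusted p = 0.129), while 1978 had an unadjusted p under 0.05. DESeq2 called 253 higher and 186 lower. By fold and unadjusted p, 688 entries (5.55%) were higher in EVs and 442 (3.57%) lower. With the pig as a block, 61 (0.492%) were higher and 75 (0.605%) lower after adjustment. Of the 32 actin cytoskeleton genes tested, 10 were lower by the unadjusted rule and 0 higher. ACTG1, the cytoplasmic gamma actin, had 35028, 37833 and 23673 reads in EVs and 139418, 142982 and 110354 in MSCs, without overlap (log2 fold change -2.03, standard error 0.37, adjusted p = 0.206 from edgeR, 0.0602 with the block). ACTA2, the smooth muscle alpha actin, passed with the block (log2 fold change -4.47, adjusted p = 0.0116 from edgeR), on 13, 5 and 39 EV reads. Of the 20 genes of lipid and cholesterol synthesis tested, 13 were lower and 0 higher by the unadjusted rule, and 10 were lower with the block. SREBF2, which encodes the transcription factor that switches on cholesterol synthesis, had 1071, 891 and 731 reads in EVs and 3258, 2216 and 2517 in MSCs (log2 fold change -1.54, adjusted p = 0.0407 from edgeR with the block). Zinc-finger genes had the most higher members by number, with 27 of 181 higher and 0 lower by the unadjusted rule, 0 with the block, and a median log2 fold change of 0.39 against -0.02 over all entries tested. By share of members, leukocyte and myeloid markers had more, with 5 of 9 entries higher by the unadjusted rule and 3 with the block, and lysosome genes had 5 of 28 and 2 with the block, with 1 lower by the unadjusted rule. In both lists 4 of the 5 higher entries belong to the 1 gene GPNMB, and the fifth was F13A1, a coagulation factor subunit also made by macrophages, and LAMP2, a lysosomal membrane protein, respectively. ZNF280D had 15.9, 20.5 and 22.9 CPM in EVs and 8.58, 3.92 and 7.62 CPM in MSCs, without overlap.

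Most single entries differed little among the 3 EV libraries, and the comparison with the spread among MSCs turned on MSC replicate 2. Of 7672 entries with a mean of at least 10 CPM in EVs, 384 (5.01%) differed more than 4-fold between the highest and the lowest EV library, and the median range was 0.53 on the log2 scale (1.45-fold). Among the 3 MSC libraries, 560 of 7569 entries (7.40%) did so, with a median range of 0.75. The EV range exceeded the MSC range in 36.6% of the 7672 entries. Between pigs 1 and 3 alone, which leaves MSC replicate 2 out, the order was the reverse, and 229 of the 7672 entries (2.98%) differed more than 4-fold between the EV libraries against 90 (1.17%) between the MSC libraries. Between pigs 1 and 2 the counts were 133 in EVs and 471 in MSCs, and between pigs 2 and 3 they were 250 and 344. With 1 library a pig, the spread within a pig was not measured. EV replicate 3 was the highest library in 232 of the 384 entries, EV replicate 1 in 81 and EV replicate 2 in 71. Over all 7672 entries, EV replicate 3 was highest in 2886, EV replicate 1 in 2436 and EV replicate 2 in 2350.

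**Figure D4:**
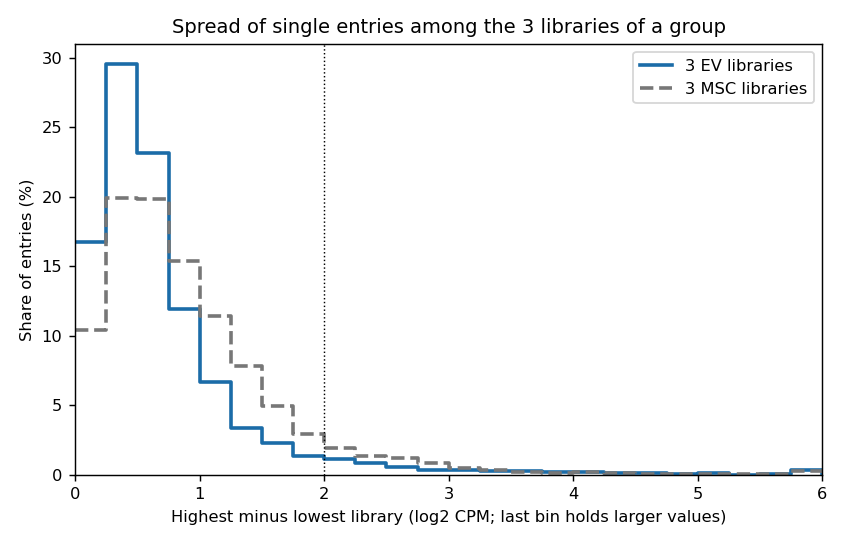
Share of entries (percent) by the difference between the highest and the lowest of 3 libraries in log2 CPM, for entries with a group mean of at least 10 CPM. The solid line is the EV group (7672 entries) and the dashed line the MSC group (7569 entries). The dotted line marks a 4-fold range, which 5.01% of EV and 7.40% of MSC entries exceed.

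Much of this spread followed the pig. Of the 384 entries, 233 (60.7%) were highest in the EVs of the pig whose MSCs were also highest, against 37.0% of the 7672 entries, and 247 (64.3%) were lowest in the same pig, against 35.7%. In a model with the group and the pig, 243 of 12392 entries (1.96%) differed between pigs after adjustment (edgeR, adjusted p under 0.05), and 116 of the 384 were among them. Since this test uses the EV values that chose the 384, the last count is a description. The test has 2 residual degrees of freedom and depends on single libraries, with 137 calls without MSC replicate 2 and 825 without EV replicate 2. Between pigs 1 and 3 alone, 178 of the 229 entries with a 4-fold difference in EVs (77.7%) differed in the same direction in MSCs, compared with 49.9% of the 7672 entries.

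HOX genes, which encode the homeodomain factors that mark position along the body axis, gave the clearest example in which EVs and MSCs of a pig went together. The table holds 31 HOX entries, 23 of them with EV reads, and 6 of the 17 tested differed between pigs, against 1.96% of all entries. The family was chosen after its values were seen. With each library left out in turn, 5 to 8 HOX entries were called, and 5 of 19 were called without MSC replicate 2. HOXA11 had 496, 311 and 0 reads in EV replicates 1, 2 and 3 and 460, 461 and 0 in MSC replicates 1, 2 and 3 (adjusted p for pigs = 0.00266 from edgeR). HOXA9 had 267, 181 and 0 reads in EVs and 224, 138 and 1 in MSCs, HOXA10 had 216, 219 and 3 against 236, 271 and 0, and HOXC10 had 233, 154 and 0 against 206, 162 and 0. The unnamed ENSSSCG00000016700, between HOXA10 and HOXA7 on chromosome 18 (50041645 to 50043875), had 706, 411 and 0 reads in EVs and 457, 382 and 2 in MSCs. Pig 3 thus had at most 3 reads on each of these 5 entries in both libraries, while pigs 1 and 2 had 138 to 706. HOXA7 was low but present, with 311, 228 and 27 reads in EVs. HOXA2 went the other way, with 18, 8 and 52 reads in EVs and 12, 7 and 115 in MSCs (adjusted p for pigs = 0.0312 from edgeR). HOXD9, with 121, 136 and 77 reads in EVs, did not pass (adjusted p for pigs = 0.973 from edgeR).

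Cell cycle genes also followed the pig. Of the 12 such genes at 10 CPM or more in EVs, 7 had a range over 4-fold, namely CENPF, KIF23, KIF20A, KIF11, TPX2, MCM3 and MCM4, against 5.01% of all such entries, and 12 of the 24 tested differed between pigs, against 1.96% of all entries. KIF20A, a kinesin of cell division, had 518, 29 and 243 reads in EV replicates 1, 2 and 3 and 1713, 124 and 1011 in MSC replicates 1, 2 and 3 (adjusted p for pigs = 0.00571 from edgeR). CENPF, a kinetochore protein, had 178, 10 and 242 reads in EVs and 519, 29 and 349 in MSCs. MCM3, a subunit of the replicative helicase, had 252, 22 and 106 reads in EVs and 784, 85 and 763 in MSCs. In each of these genes pig 2 was lowest in both libraries. MSC replicate 2 is the library that stood apart from the rest, and without it 6 of the 24 cell cycle genes were called, KIF20A among them (adjusted p for pigs = 0.0245 from edgeR). With any other library left out, 10 to 13 were called. EV replicate 2 was the lowest EV library in the same 3 genes.

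Matrix structural genes varied more than most entries. Of 47 with a mean of at least 10 CPM in EVs, 16 had a range over 4-fold, against 5.01% of all such entries, and the median range of the class was 1.60 against 0.53. EV replicate 3 was the highest EV library in 14 of the 16, against 232 of all 384 entries with such a range. Of the 50 tested, 4 differed between pigs, against 1.96% of all entries. With each library left out in turn this count was 4 to 12, with 12 without MSC replicate 3 and 7 without EV replicate 2. COL11A1, a fibrillar collagen, had 751, 224 and 4771 reads in EV replicates 1, 2 and 3 and 1368, 1395 and 4457 in MSC replicates 1, 2 and 3. ELN, the elastin precursor, had 1443, 1483 and 7497 reads in EVs and 426, 1112 and 2016 in MSCs, so pig 3 was highest in both. COL5A1, which initiates collagen fibrils, had 12358, 15840 and 57934 reads in EVs, whereas its MSC libraries had 23252, 17971 and 29743 and differed by less than 4-fold. FBLN1, the matrix glycoprotein fibulin 1, ran against this order with 11096, 1921 and 588 reads in EVs and 11649, 12246 and 1375 in MSCs. None of these 4 passed the test for pigs (adjusted p = 0.0663, 0.0600, 0.355 and 0.0560 from edgeR for COL11A1, ELN, COL5A1 and FBLN1).

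The single entries that differed most among the EV libraries fell into those shared with the MSCs of the pig and those that were not. SERPINB2, plasminogen activator inhibitor 2, had 836, 4 and 303 reads in EVs and 7053, 17 and 2809 in MSCs, lowest in pig 2 in both (adjusted p for pigs = 0.000880 from edgeR). The test for pigs uses the EV values for which SERPINB2 was named, so this p is a description. COL22A1, a collagen of tissue junctions, had 1037, 3 and 2632 reads in EVs and 1756, 1 and 140 in MSCs. PDYN, the opioid peptide precursor, had 30, 740 and 2 reads in EVs and 75, 657 and 0 in MSCs, highest in pig 2 in both. MX2, an interferon-induced GTPase, had 324, 36 and 2 reads in EVs and 570, 6 and 8 in MSCs, highest in pig 1 in both.

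In pig 2, some entries were far higher in EVs than anywhere else. MMP13, the collagenase 3 that cleaves fibrillar collagen, had 290, 5615 and 73 reads in EV replicates 1, 2 and 3, against 4, 48 and 9 in MSC replicates 1, 2 and 3, with pig 2 highest in both groups. It differed between pigs (adjusted p for pigs = 0.0109 from edgeR), but not past the threshold without EV replicate 2 (adjusted p = 0.0587). The EV values that made MMP13 stand out enter this test, so its p is likewise a description. MMP13 was higher in EVs with the pig as a block (log2 fold change 5.58, adjusted p = 0.0116 from edgeR). GPNMB, a transmembrane glycoprotein of lysosomes and melanosomes, is split over 7 entries that together had 477, 4414 and 44 reads in EVs and 46, 231 and 34 in MSCs. GPNMB is a member of the leukocyte and myeloid list, which took 0.0205%, 0.0503% and 0.00897% of EV reads and 0.00641% to 0.00903% of MSC reads. Of the entries on this list, 3 were higher in EVs with the pig as a block, and 2 of these belong to GPNMB. F13A1, also on this list, was higher in EVs by the unadjusted rule, so the list did not rest on GPNMB alone. PTPRC had 2 reads and CSF1R 5 in EV replicate 2, and CD14 had 667, 771 and 416 in EVs and 469 to 588 in MSCs. The cell source of these reads was not tested.

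A few transcripts were found almost entirely in 1 EV library and in no MSC library at a comparable level. Counting entries of at least 10 CPM that exceeded each of the other 5 libraries more than 16-fold, a rule chosen after the values were seen, there were 3, 3 and 4 in EV replicates 1, 2 and 3 and 1, 3 and 3 in MSC replicates 1, 2 and 3, so such entries were about as frequent in both groups. In EV replicate 1, ECSCR, an endothelial cell surface protein, had 539 reads and 0 in each of the other 5 libraries, and AMH, the anti-Müllerian hormone, had 360 reads and at most 5 elsewhere. In EV replicate 2, ADAMTS8, a secreted metalloprotease, had 405 reads and at most 10 elsewhere. In EV replicate 3, LRRC4B, a synaptic adhesion protein, had 3981 reads and 5 to 46 elsewhere, HGFAC, the activator of hepatocyte growth factor, had 496 and at most 4 elsewhere, and ENSSSCG00000025494 on chromosome 8 (121466049 to 121473057), between SEC24B and ETNPPL, had 2673 and at most 5 elsewhere. Of the defining endothelial markers, PECAM1 had 78, 20 and 31 reads in EVs and 111 to 215 in MSCs, and KDR and VWF had 0 in EV replicate 1. The endothelial list members EGFL7 and ERG had 233 and 114 reads in EV replicate 1, and 212 and 229 in MSC replicate 1.

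In 12 of the 188 entries with a range over 4-fold in both groups, the pig with the highest EV library had the lowest MSC library, whereas in 118 it also had the highest. STC2, the secreted stanniocalcin 2, was among the 12, with 27, 127 and 876 reads in EV replicates 1, 2 and 3 and 434, 1707 and 323 in MSC replicates 1, 2 and 3. FRMPD1, a scaffold protein that binds G protein regulators, had the widest range of all 7672 entries, at 10.62 on the log2 scale. It had 5, 1461 and 9251 reads in EVs and 4586, 5 and 37 in MSCs, so pig 1 was lowest in EVs and highest in MSCs. SLC16A3, the lactate exporter, had 242, 1667 and 3579 reads in EVs and 158, 6115 and 311 in MSCs, with different pigs highest in each.

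**Figure D5:**
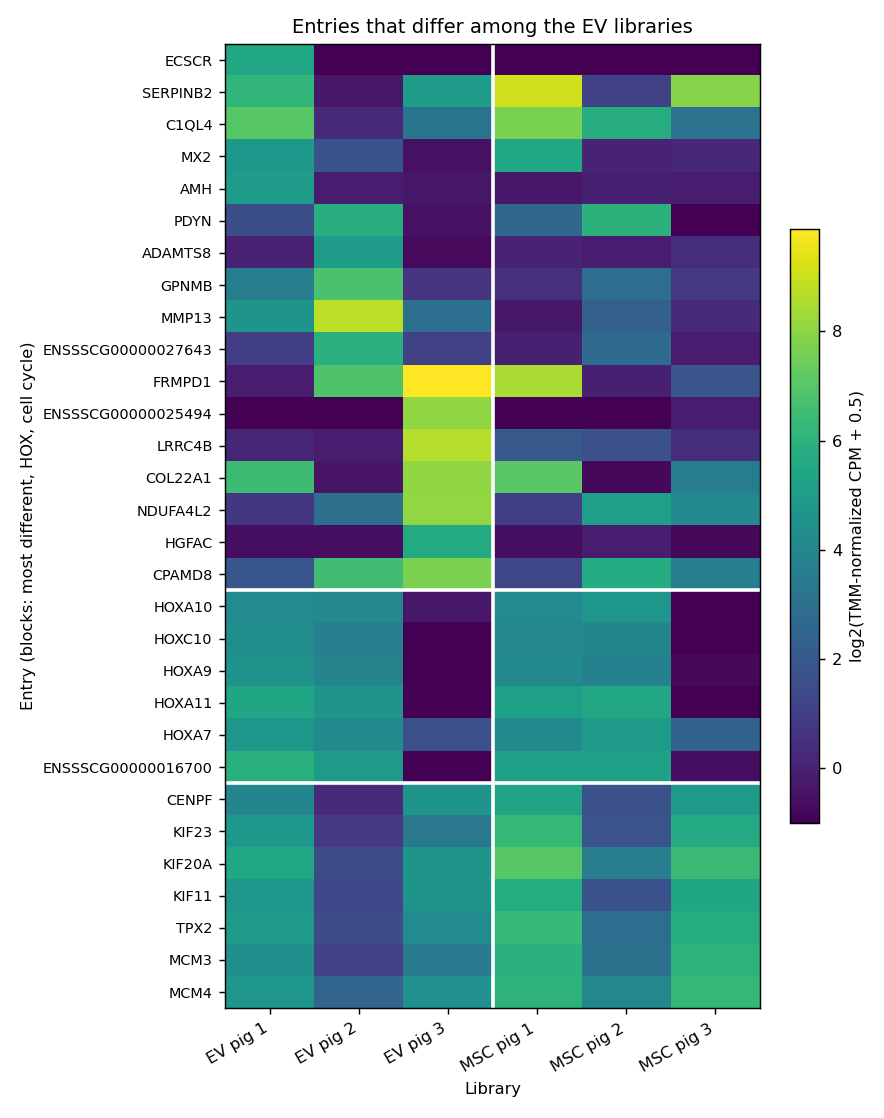
Level of single entries, as log2 of TMM-normalized CPM plus 0.5 (colour), in the 3 EV and 3 MSC libraries. Rows are in 3 blocks from the top, namely entries that differed most among the EV libraries, HOX entries and cell cycle genes. The HOX block is dark in pig 3 in both groups except for HOXA7, which is low but present there. The cell cycle block is lowest in pig 2 in both groups, and ECSCR, AMH, ADAMTS8, LRRC4B and HGFAC are bright in 1 EV library only.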

How the data were processed

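RNA of the 3 EV and 3 MSC preparations was sequenced. The authors deposited 1 table with raw read counts and RPKM per gene model and library. The labels name a TruSeq stranded total RNA library and HTSeq, whereas the methods of the study name TruSeq RNA Sample Prep v2 and featureCounts, so strand use is uncertain and antisense overlaps cannot be resolved. Per the labels, the genome build was susScr3. Per the file headers and the values, counts were not normalized and RPKM were scaled by the authors to a library total. Of 29661 rows, 3 were shifted by a column and left out. Symbols were held by 16140 entries (11804 of 25322 Ensembl identifiers matched in the annotation).

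From the counts, shares of gene reads were computed, and CPM with TMM factors and a prior count of 2 for log2 values. EVs were compared with MSCs by edgeR 4.0.16 (R 4.3.3, filterByExpr, quasi-likelihood test, Benjamini-Hochberg adjustment over 12392 entries), called at a fold change over 2 with p under 0.05. Pigs were compared in a model with group and pig. Shares were compared by two-sided exact permutation tests, which with 3 against 3 cannot go below 0.1. Alternatives were DESeq2 1.42.0, other size factors, no filter, the pig as a block, shares of RPKM and leaving out each library. Added after the data were seen were shares without RN18S and with the entries of 1 symbol or locus summed. Tested on simulated data with 200 of 12392 entries changed, edgeR recovered 41.5% of 4-fold and 96% of 16-fold differences between EVs and MSCs, and 19% of 4-fold and 96.5% of 16-fold differences between pigs. Entries called but not changed numbered 6 and 15 between EVs and MSCs, and 4 and 19 between pigs, in the same order.

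Libraries of the same pig deviated together from their group means (r across entries 0.25, 0.38 and 0.41). For libraries of different pigs r was -0.36 to -0.04. Since each group mean was subtracted, deviations within a group cancel, so the second range is not independent of the first. The pairing comes from the pig identifiers in the labels. The replicates are separate animals.

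The genes named are the 15 entries with most reads and the 15 with the highest RPKM in EVs, the entries highest or lowest in each EV library against the other EV libraries (5 and 3 a library, EV mean of at least 10 CPM), leading members of each list, and the surface proteins of the study. Others named, among them HOX genes other than HOXA9 and HOXA11, single matrix and cell cycle genes, STC2 and SLC16A3, were chosen after their values were seen. The members and lists were chosen with earlier results of these data known. Entries named by this rule that are not described are not reported here. Small-RNA libraries were not used here. Intervals and floors (3 reads) cover counting error alone, as PCR copies were not marked by molecular identifiers.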

Additional observations from a re-analysis of the deposited data

How the results depend on the processing

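With the pig as a replicate block, 61 entries were higher and 75 lower in EVs after adjustment, where the unpaired edgeR fit called 0 and 0, and the unadjusted counts went to 992 higher and 641 lower. DESeq2 called 253 higher and 186 lower, and without a filter on low counts edgeR called 0 higher and 5 lower. Leaving out each library gave 0 adjusted calls throughout, 511 to 948 higher and 270 to 607 lower at the unadjusted p, the lowest being without EV replicate 2. Differences between pigs numbered 760 without the filter and 664 by DESeq2, and 137 to 825 when a library was left out, with 137 without MSC replicate 2, 632 without MSC replicate 3, 825 without EV replicate 2 and 430 without EV replicate 3. By RPKM the 100 leading entries held 47.6% of EV values instead of 41.5% of EV reads, and 4 instead of 8 gene classes lay below every MSC library. Classes above every MSC library numbered 1 without RN18S and 0 to 5 when a library was left out, with 5 without MSC replicate 2 and 5 without EV replicate 3. Classes below then numbered 8 to 10. Entries with a 4-fold range among EVs numbered 1034 at a minimum of 1 CPM and 145 at 50 CPM, and 127 to 256 with a library left out (127 without EV replicate 3, 248 without EV replicate 2, 256 without EV replicate 1). A range over fewer libraries can only shrink. The mean number of entries holding 50% of the EV total was 264 by reads and 170.3 by RPKM. Without EV replicate 3 the balance of unadjusted calls turned, from 688 higher and 442 lower to 532 higher and 607 lower. In a comparison added after the data were seen, pigs 1 and 3 alone had more entries with a 4-fold difference among EVs (229) than among MSCs (90), the reverse of the order over all 3 pigs.

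Depth was not limiting for the leading entries. For entries at 0 reads that share a span with another entry, absence was not shown. With 1 EV library a pig, variation between preparations of a pig was not measured.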

Other observations

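Growth factor genes, one of the gene classes compared above, took 0.344%, 0.432% and 0.394% of the reads of EV replicates 1, 2 and 3, and 3 of the 25 tested were lower and 1 higher in EVs with the pig as a block (edgeR, adjusted p under 0.05), against 0.605% lower and 0.492% higher over all entries. CCN1 and CCN2, matricellular proteins, were lower, with 737, 289 and 270 reads in EVs and 8963, 12632 and 4940 in MSCs for CCN1, and 429, 209 and 238 against 6090, 12893 and 5346 for CCN2 (adjusted p = 0.0116 each from edgeR with the block). BMP2, a bone morphogenetic protein, was higher, with 32.8, 54.4 and 15.7 CPM in EVs and 3.17, 7.46 and 5.00 CPM in MSCs (adjusted p = 0.0261 from edgeR with the block), and BMP4 was lower (log2 fold change -2.59, adjusted p = 0.0186). PDGFD, a platelet-derived growth factor, followed the pig, with 122, 47 and 650 reads in EVs and 321, 35 and 742 in MSCs (adjusted p for pigs = 0.00696 from edgeR). PTN, pleiotrophin, had 12, 14 and 383 reads in EVs and 40, 115 and 173 in MSCs, highest in pig 3 in both (adjusted p for pigs = 0.107 from edgeR).

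Cytokine and chemokine genes took 0.133%, 0.128% and 0.0519% of EV reads and 0.128%, 0.123% and 0.0642% of MSC reads, so pig 3 was lowest in both groups. Of the 55 entries in this class, 37 shared their span with another entry and had 0 reads in every library. IL6, an inflammatory cytokine, had 6790, 4412 and 1889 reads in EVs and 8757, 9742 and 2803 in MSCs. IL33, an alarmin, had 3272, 7750 and 2071 reads in EVs and 2305, 2727 and 1531 in MSCs, highest in pig 2 in both. IL6 took 0.0651%, 0.0363% and 0.0163% of EV reads and IL33 0.0314%, 0.0638% and 0.0178%. The class share thus rests largely on IL6 and IL33.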
